A study of Danio rerio with 10 samples.

Results

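Proteasome genes were followed in single cells of early zebrafish (*Danio rerio*) embryos in which RNA made after fertilization carried a chemical label. The genes were chosen by name: every gene of the count table whose symbol starts with psma, psmb, psmc, psmd, psme, psmf or psmg followed by a digit, in either case. This gave 56 of 20920 genes. By role they were 10 genes of the 20S alpha ring, 7 of the 20S beta ring, 5 inducible-type beta genes, 11 of the 19S base, 9 of the 19S lid, 6 assembly chaperones and 6 activators or inhibitors. The other 2, psmc3ip and psme3ip1, match by name alone: they encode partners named after a subunit and are no subunits themselves. The name rule uses neither level nor label, but it was set with earlier results of these data known.

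AB/TL embryos received 20 mM 4sUTP by injection at the 1-cell stage. This uridine analog enters RNA transcribed after the injection, so that labeled RNA is zygotic and unlabeled RNA is mostly maternal. All groups used here carried the injection, and their RNA was treated with 10 mM iodoacetamide (IAA), which turns labeled bases into T-to-C changes in the reads. The 5 libraries are Drop-seq pools of many embryos: 1 of the dome stage (replicate B), 2 of 30% epiboly and 2 of 50% epiboly (each with a replicate A and a replicate B). The labels also give 5 untreated (NT) samples, which were not analysed here. The labeled percent of unconverted RNA is thus not set beside the values. Dome has 1 library and no spread of its own. The label calls it replicate B, although A stands in the names of its cells and the study counts it to the first replicate. The label was followed. Per the methods, the first epiboly replicate was deyolked by hand, whereas the second and the dome embryos were shaken in deyolking buffer, so that handling and replicate cannot be told apart. Cells cannot be traced to single embryos, so p-values measure the spread between these pooled libraries.

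The proteasome is the main machine that degrades proteins marked with ubiquitin. Its 20S core is a barrel of inner beta rings between outer alpha rings, and psmb5, psmb6 and psmb7 encode the beta subunits with peptidase activity. The 19S particle caps the barrel: its base holds the ATPases (psmc1 to psmc6) that unfold the substrate, and its lid holds the deubiquitinase psmd14. In most animals the egg supplies both the protein complex and its mRNAs, and the embryo takes over their transcription after zygotic genome activation.

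The libraries held 251 to 3068 cells and 557065 to 8780804 UMIs (unique molecular identifiers, each counting 1 captured mRNA), with a median of 2066 to 4087 UMIs per cell. The library of 50% epiboly replicate B was the smallest by both measures. Of all barcodes, 1 occurred in more than 1 library. Levels are given as CPM, the UMIs of a gene scaled to the same total in every library. Because Drop-seq tags the 3′ end of an mRNA once, CPM values are not divided by gene length, and they describe captured mRNA ends. Deposited cell type names were checked against 27 gene and type pairs fixed for this purpose, and 26 were higher in the named type than in all other cells. The exception was tfap2a in Non Neural Ectoderm. This is a weak check, since not every gene was highest in its type. By CPM, Notochord ranked 6 among the types for tbxta, Ventral Margin 6 for osr1 and YSL contam 6 for apoc1. For sox17, Endoderm (B) held 2 UMIs. The types were clustered by the authors on these same counts. In pooled sums, fewer cells of a type and less RNA per cell cannot be told apart.

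With stage the labeled part of proteasome mRNA grew in these libraries more clearly than its share of all mRNA. Summed over the 56 genes, their share of all UMIs was 0.528% in dome, 0.544% and 0.484% at 30% epiboly, and 0.573% and 0.730% at 50% epiboly, where replicate A is always named before B. The 2 libraries of 50% epiboly differed from each other by more than dome differed from 50% epiboly replicate A, and their 95% exact binomial intervals (0.568 to 0.578 and 0.707 to 0.752) did not overlap. Intervals cover counting error only.

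The labeled percent was taken from the deposited labeled fraction of each gene in each cell, weighted by UMIs, in gene-cell pairs with 3 or more UMIs, the limit used by the study. The paper states that fractions estimated in single cells were often too low for zygotic genes and left an unlabeled background. It found estimates on pooled cells more accurate. Unlabeled UMIs may therefore include zygotic mRNA, and labeled percents may be too low. For the summed proteasome genes it was 6.96% in dome, 20.9% and 22.9% in 30% epiboly, and 40.0% and 35.4% in 50% epiboly. All other genes together had 13.6% in dome, 38.3% and 32.1% in 30% epiboly, and 51.2% and 34.9% in 50% epiboly. At this pair limit proteasome mRNA had a lower labeled percent than the remaining mRNA in 4 of the 5 libraries, and 35.4% against 34.9% in 50% epiboly replicate B, where the 95% Wilson interval of the proteasome value (32.6 to 38.4) held both.

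A sum is carried by its most abundant genes. Gene by gene, the median labeled percent over proteasome genes with 30 or more UMIs behind the estimate was 6.79% of 24 genes in dome, 29.4% of 24 and 28.5% of 20 in 30% epiboly, and 52.1% of 27 and 28.5% of 12 in 50% epiboly. The same medians over all genes were 5.00% in dome, 25.3% and 19.5% in 30% epiboly, and 45.1% and 24.2% in 50% epiboly. Of these proteasome genes 13 of 24, 14 of 24, 12 of 20, 14 of 27 and 7 of 12 lay above the median of all genes in the same library order.

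**Figure D1:**
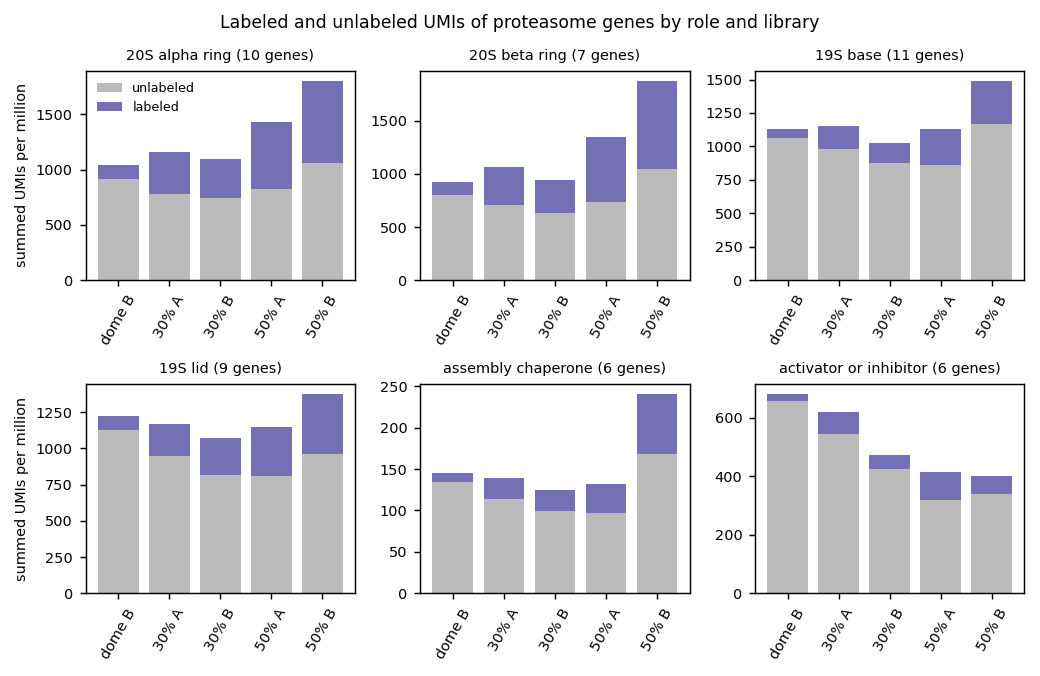
Summed CPM (vertical axes, each panel with its own scale) of 6 role groups in the 5 libraries, split into labeled (purple) and unlabeled (gray) UMIs, using gene-cell pairs with 1 or more UMIs. The alpha and beta rings stand higher in both 50% epiboly libraries than in dome, while the activators and the inhibitor stand lower.

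The role groups differed in both level and label. The alpha ring summed to 1040 CPM in dome, 1163 and 1092 CPM in 30% epiboly, and 1434 and 1804 CPM in 50% epiboly. The beta ring summed to 927 CPM in dome, 1067 and 944 CPM in 30% epiboly, and 1351 and 1879 CPM in 50% epiboly. Both rings were higher in each 50% epiboly library than in the other 3 libraries. The 19S base was almost level at 1131 CPM in dome, 1155 and 1023 CPM in 30% epiboly and 1132 CPM in 50% epiboly replicate A, with 1492 CPM in replicate B. The 19S lid likewise gave 1224 CPM in dome, 1168 and 1075 CPM in 30% epiboly, and 1150 and 1375 CPM in 50% epiboly. The activators and the inhibitor went the other way, with 682 CPM in dome, 620 and 475 CPM in 30% epiboly, and 415 and 402 CPM in 50% epiboly; psme3 made up most of these UMIs.

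In dome the beta ring was 15.9% labeled, the alpha ring 9.70%, the lid 8.86% and the base 3.35%. In 50% epiboly the beta ring reached 64.0% and 60.8% in replicates A and B and the alpha ring 50.6% and 45.6%, whereas the lid had 32.7% and 29.7% and the base 17.98% and 9.42%. The order of beta ring, alpha ring, lid and base was the same in all 5 libraries. Most UMIs behind the base percent came from psmc3 and psmc4 (6951 and 3229 over all libraries). Most behind the lid percent came from psmd7 and psmd8 (4544 and 3664). With pairs of 1 or more UMIs the groups lay closer together: in 50% epiboly replicate A the beta ring had 45.6% and the base 24.2%. Over all libraries at that limit the other base genes ranged from 2.89% (psmd1) to 46.1% (psmc6). The other lid genes ranged from 3.78% (psmd3) to 46.1% (psmd12). The order of lid over base thus holds for the sums and not gene by gene.

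For each stage step, edgeR's quasi-likelihood test (TMM scaling, Benjamini-Hochberg adjustment over 12150 genes, threshold 5%) asked which genes changed in level. Its log2 changes are on the TMM scale and are not changes in the share of all UMIs. Of the 56 genes 51 had enough UMIs to be tested. From dome to 50% epiboly 8 of the 51 rose and 0 fell: psmb6, psma1, psmb7, psmd13, psmc6, psma4, PSMA2 and psma6b. Over all genes 5.69% rose and 7.95% changed in either direction. Proteasome genes had a median log2 change of 0.87 against -0.09 over all genes tested, and 43 of 51 changes were positive against 47.0% of all genes. By role, 4 of 9 alpha ring genes, 2 of 7 beta ring genes, 1 of 10 base genes and 1 of 9 lid genes rose, and 0 of 6 chaperones and 0 of 6 activators passed the test. These last 2 groups differed in direction. The chaperones had a median log2 change of 1.07 with 6 of 6 positive, and the activators and inhibitor -0.29 with 0 of 6 positive.

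The psmb6 gene, which encodes the beta subunit with caspase-like activity, was at 42.5 CPM in dome, 109 and 88.3 CPM in 30% epiboly, and 167 and 178 CPM in 50% epiboly. The 3 stages did not overlap. From dome to 50% epiboly its log2 change was 2.46 (SE 0.47; edgeR adjusted p = 0.00814). The alpha ring gene psma1 was at 13.7 CPM in dome, 41.4 and 30.5 CPM in 30% epiboly, and 75.7 and 57.4 CPM in 50% epiboly, again without overlap between stages. Its log2 change was 2.76 (SE 0.55; edgeR adjusted p = 0.00939). The psmb7 gene, encoding the beta subunit with trypsin-like activity and the one with most UMIs in its ring, was at 199 CPM in dome, 293 and 208 CPM in 30% epiboly, and 424 and 610 CPM in 50% epiboly. Dome and 30% epiboly replicate B were close, and both 50% epiboly libraries stood well above them. Its log2 change was 1.80 (SE 0.43; edgeR adjusted p = 0.0207).

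Of the 19S particle, the lid subunit psmd13 was at 17.5 CPM in dome, 25.9 and 21.2 CPM in 30% epiboly, and 52.8 and 66.4 CPM in 50% epiboly. The base ATPase psmc6 was at 53.2 CPM in dome, 95.1 and 55.8 CPM in 30% epiboly, and 146 and 156 CPM in 50% epiboly. Both genes had their 2 highest values in 50% epiboly, with log2 changes from dome of 2.18 (SE 0.53) and 1.94 (SE 0.48) and edgeR adjusted p-values of 0.0211 and 0.0236. The alpha ring gene psma4 was at 100 CPM in dome, 130 and 155 CPM in 30% epiboly, and 209 and 269 CPM in 50% epiboly, which gave a log2 change of 1.68 (SE 0.43; edgeR adjusted p = 0.0282). The remaining 2 calls, PSMA2 and psma6b, are described with their paralogs.

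**Figure D2:**
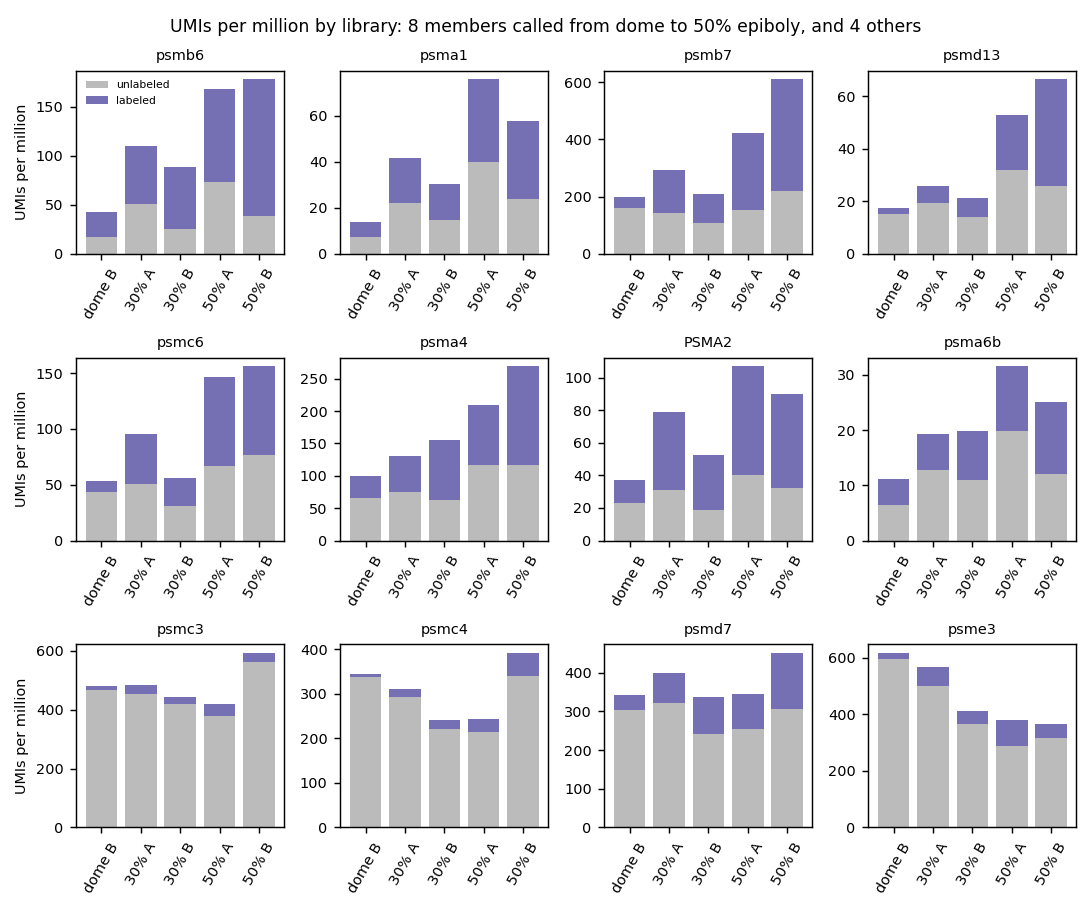
CPM (vertical axes, own scale per panel) in the 5 libraries for the 8 genes called from dome to 50% epiboly and for psmc3, psmc4, psmd7 and psme3, split into labeled (purple) and unlabeled (gray) by gene-cell pairs with 1 or more UMIs. The 8 called genes are lowest in dome and hold a large labeled part in 50% epiboly, while psmc3, psmc4 and psme3 are mostly gray in every library.

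Scaling bears on the size of these changes and, for small ones, on their sign. Without TMM, on library totals alone, the median over all genes from dome to 50% epiboly shifted to -0.56 and that of the proteasome genes to 0.42. On that scale 6 proteasome genes rose and 1, psmd11a, fell. In plain CPM, 26 of the 49 proteasome genes with 50 or more UMIs were higher in both 50% epiboly libraries than in dome, against 21.4% of all genes with as many UMIs. Of the 51 tested genes 13 were lower than dome in both, and the same share over all genes was not taken. Among them were psmd6 and psmd11b, whose TMM-scaled log2 changes were positive at 0.17 and 0.07. Calls moved with the library left out, among proteasome genes and over all genes. Leaving out a 50% epiboly library leaves 1 in that stage, so effect sizes are given. Without 50% epiboly replicate A the median log2 change was 0.85 over proteasome genes and -0.25 over all genes. Without replicate B these medians were 0.75 and -0.05.

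In the main fit the shorter steps gave no calls among proteasome genes. From dome to 30% epiboly 0 of 51 passed edgeR's test (0.321% of all genes did), 4 had an unadjusted p under 0.05, and DESeq2 called 0. Their median log2 change was 0.26 against -0.01 over all genes. A few proteasome genes passed with 30% epiboly replicate B or a 50% epiboly library left out, where calls over all genes rose too. Each such fit leaves 1 library in a stage, so effect sizes are given. Without 30% epiboly replicate B the median log2 change was 0.24 against -0.02 over all genes. Without 50% epiboly replicate A it was 0.30 against 0.02, and without 50% epiboly replicate B 0.31 against 0.02. From 30% to 50% epiboly 0 of 51 passed with 0% of all genes called, 18 had an unadjusted p under 0.05, DESeq2 called 0, and the median log2 change was 0.56 against -0.07. Without 50% epiboly replicate A a few proteasome genes passed, and calls over all genes rose too. The median log2 change was then 0.63 against -0.24 over all genes. Of the 49 genes with 50 or more UMIs, 31 were higher at 50% than at 30% epiboly within replicate A and 38 within replicate B, where 30.8% and 35.6% of all genes were. Of these 49, 25 had both 50% epiboly libraries above both 30% epiboly libraries, against 9.26% of all genes.

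By label the family spread from genes mostly labeled by 50% epiboly to genes that stayed mostly unlabeled. At pairs of 1 or more UMIs, 11 of 48 genes in 50% epiboly replicate A were over 50% labeled and 8 under 10%. Over all genes these shares were 24.3% and 23.8%. In replicate B 14 of 30 were over 50% and 3 under 10%, against 26.1% and 29.9% of all genes. At pairs of 3 or more UMIs, 12 genes had 30 or more UMIs behind the estimate in every library. Over all libraries psmb7 (64.0%), psma4 (62.7%) and psma2 (50.27%) had the highest labeled percent among them. The lowest were psmc3 (6.06%), psmc4 (6.17%) and psma6a (8.58%). The psmb7 mRNA was 30.0% labeled in dome, 62.6% and 57.6% in 30% epiboly, and 72.7% and 77.8% in 50% epiboly. By contrast psmc3, a base ATPase and the base gene with most UMIs, was 2.87% labeled in dome, 6.43% and 5.66% in 30% epiboly, and 10.3% and 2.71% in 50% epiboly. Its total level showed no trend, with 481 CPM in dome, 484 and 442 CPM in 30% epiboly, and 420 and 592 CPM in 50% epiboly.

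The other base ATPase of this kind, psmc4, was 2.75% labeled in dome, 5.86% and 7.25% in 30% epiboly, and 12.4% and 12.0% in 50% epiboly. Among lid genes psmd7, the lid gene with most UMIs, was 14.1% labeled in dome, 22.7% and 35.6% in 30% epiboly, and 32.1% and 36.6% in 50% epiboly. The activator psme3, which encodes the nuclear PA28gamma cap of the 20S core, had most UMIs of all 56 genes, 13270. It was at 617 CPM in dome, 568 and 410 CPM in 30% epiboly, and 378 and 366 CPM in 50% epiboly, with 3.38%, 12.0%, 9.76%, 23.96% and 15.3% labeled in the same order. Its total log2 change from dome to 50% epiboly was -0.29 (SE 0.38; edgeR adjusted p = 0.652) and did not pass the test.

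**Figure D3:**
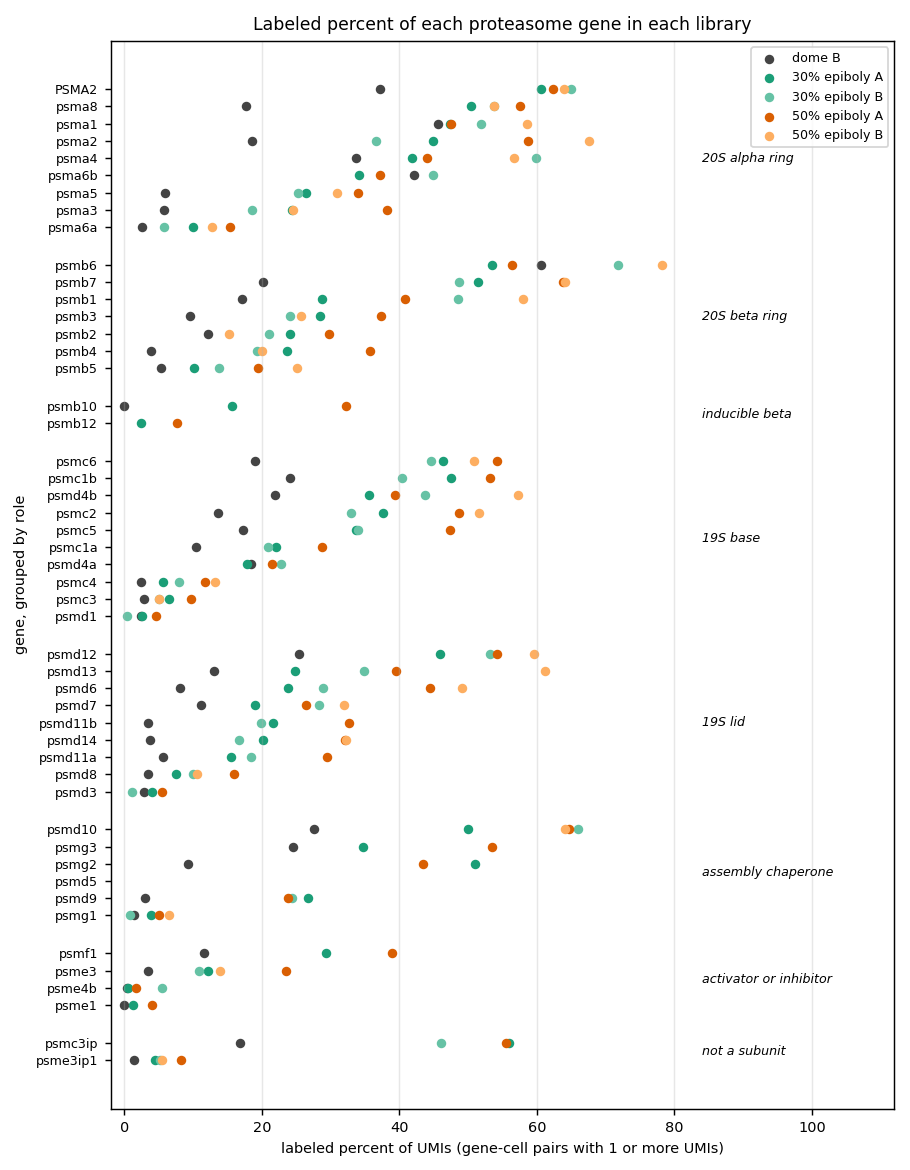
Labeled percent of UMIs (horizontal axis, gene-cell pairs with 1 or more UMIs) of the 49 genes with 50 or more UMIs, grouped by role, with 1 point per library where 30 or more UMIs stood behind the value (psmd5 has none). Points spread from near 0 for psmd1, psmd3, psmg1, psme1 and psme4b to 78.2% for psmb6 in 50% epiboly replicate B, and in 29 of the 30 genes with enough UMIs in every library both 50% epiboly libraries lie right of dome. The same share over all genes was not taken.

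At pairs of 1 or more UMIs, which bring in the less abundant genes, 30 proteasome genes had 30 or more UMIs in every library, and in 29 of them both 50% epiboly libraries had a higher labeled percent than dome. The exception was psmb6, at 60.6% in dome, 53.5% and 71.9% in 30% epiboly, and 56.3% and 78.2% in 50% epiboly, the only one of the 47 genes with enough UMIs in dome that was over 50% labeled at that stage. Over all genes 5.92% were. The estimate depends on the pair limit for such genes: over all libraries psmb6 was 58.2% labeled at 1 or more UMIs per pair and 78.9% at 3 or more, and psmb7 51.7% and 64.0%. The share of all genes whose labeled percent was above dome in both 50% epiboly libraries was not taken. Labeled CPM (CPM times labeled percent, pairs of 3 or more UMIs) rose from dome to 50% epiboly in 93.8% of 791 genes. The count of 29 of 30 is thus not read as particular to proteasome genes.

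To ask whether the rise lay in the labeled or in the unlabeled part, CPM were split by the labeled percent and tested with limma on log2(CPM + 1), which understates the change of low values, over the 791 genes with 30 or more UMIs behind the estimate in every library. Of proteasome genes 12 qualified. From dome to 50% epiboly 6 of the 12 rose in labeled CPM and 0 fell: psma2, psma5, psmb4, psmb7, psmb3 and psma4. Of all 791 genes 46% rose, so this share is near the background. The median change was 1.90 over the 12 genes and 1.63 over all. With either 30% epiboly library or 50% epiboly replicate B left out 0 genes were called (6 of 12, 6 of 12 and 12 of 18 tested had an unadjusted p under 0.05), and 4 were called without 50% epiboly replicate A.

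Labeled psma5, an alpha ring gene, was at 7.19 CPM in dome, 65.0 and 59.2 CPM in 30% epiboly, and 82.1 and 89.9 CPM in 50% epiboly, a log2 change from dome of 3.41 (SE 0.54; limma adjusted p = 0.0203). Labeled psmb4, of the beta ring, was at 7.56 CPM in dome, 47.4 and 35.4 CPM in 30% epiboly, and 87.3 and 63.6 CPM in 50% epiboly, a log2 change of 3.14 (SE 0.60; limma adjusted p = 0.0203). For both genes each later stage lay above dome without overlap. Labeled psmb7 was at 59.8 CPM in dome, 183 and 120 CPM in 30% epiboly, and 309 and 475 CPM in 50% epiboly, and labeled psma2 at 37.1 CPM in dome, 113 and 84.2 CPM in 30% epiboly, and 177 and 274 CPM in 50% epiboly. Their log2 changes were 2.66 (SE 0.54) and 2.54 (SE 0.54), each with a limma adjusted p of 0.0203. The changes of psmb3 and psma4 were 2.19 (SE 0.54) and 1.72 (SE 0.59), with limma adjusted p-values of 0.0239 and 0.0485.

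From dome to 30% epiboly 0 of the 12 genes were called in labeled CPM (0% of all genes; 4 had an unadjusted p under 0.05 in limma, and with the replicate letter as a block 2 of the 12 and 106 of the 791 genes were called), and from 30% to 50% epiboly 0 (0% of all; 2 unadjusted). No other tool was run on these values.

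The unlabeled part showed no call. From dome to 50% epiboly limma called 0 of the 12 genes (0.632% of all; 1 had an unadjusted p under 0.05), and 0 of 12 in each shorter step (0% of all in both; 0 and 0 unadjusted). The median log2 change from dome to 50% epiboly was -0.13 over the 12 genes and -0.29 over all. Its direction rested on single libraries: it was 0.12 without 50% epiboly replicate A, and -0.58 over 18 genes without 50% epiboly replicate B. Unlabeled psmb7 was at 140 CPM in dome, 109 and 88.2 CPM in 30% epiboly, and 116 and 136 CPM in 50% epiboly, all within a narrow range while its labeled part rose. Unlabeled psme3 was at 596 CPM in dome, 500 and 370 CPM in 30% epiboly, and 288 and 310 CPM in 50% epiboly, a log2 change of -0.99 (SE 0.41; limma adjusted p = 0.325).

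The copies of a paralog pair could differ in labeled percent. The sources used here do not say how reads shared by near-identical copies were counted, so the split within a pair is uncertain. For alpha 6, psma6a, the alpha ring gene with most UMIs, was at 292 CPM in dome, 232 and 229 CPM in 30% epiboly, and 241 and 379 CPM in 50% epiboly, with 2.53%, 9.97%, 5.74%, 15.4% and 12.7% labeled in the same order (pairs of 1 or more UMIs, as for all labeled percents of paralogs). Its paralog psma6b was at 11.2 CPM in dome, 19.3 and 19.8 CPM in 30% epiboly, and 31.5 and 25.1 CPM in 50% epiboly, and it rose by 1.84 on the log2 scale from dome to 50% epiboly (SE 0.55; edgeR adjusted p = 0.0496). It was 42.2% labeled in dome and 34.1% to 52.4% afterwards, the highest from 14 UMIs in 50% epiboly replicate B. That call was lost under 7 of the alternatives tried, DESeq2 among them. A further relative, psma6l, had 7 UMIs in all.

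For alpha 2, the row named psma2 was at 184 CPM in dome, 209 and 231 CPM in 30% epiboly, and 260 and 359 CPM in 50% epiboly, and 18.5% labeled in dome. The row named PSMA2, a separate Ensembl gene (ENSDARG00000035679), was at 37.1 CPM in dome, 79.2 and 52.7 CPM in 30% epiboly, and 107 and 89.8 CPM in 50% epiboly, and was already 37.2% labeled in dome. It rose from dome to 50% epiboly by 1.87 on the log2 scale (SE 0.49; edgeR adjusted p = 0.0302), and psma2 did not pass the test at 1.17 (SE 0.41; edgeR adjusted p = 0.0800). Without 30% epiboly replicate A the call of PSMA2 was lost.

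**Figure D4:**
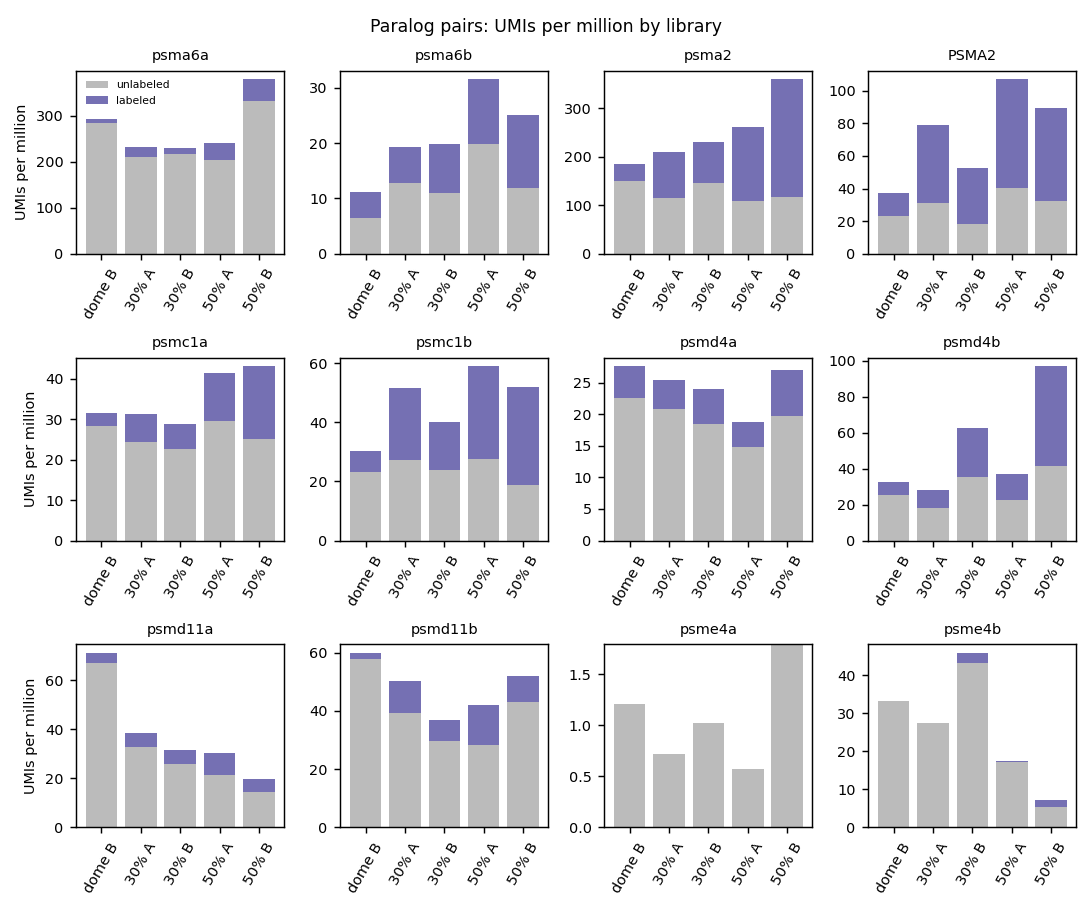
CPM (vertical axes, own scale per panel) of 6 paralog pairs in the 5 libraries, split into labeled (purple) and unlabeled (gray) by gene-cell pairs with 1 or more UMIs. The second gene of the psma6, psma2 and psmc1 pairs is labeled to a larger percent than the first in dome, and psme4a stays under 2 CPM.

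The ATPase gene psmc1a was at 31.5 CPM in dome, 31.4 and 28.7 CPM in 30% epiboly, and 41.5 and 43.1 CPM in 50% epiboly, and 10.4%, 22.1%, 20.9%, 28.8% and 41.7% labeled. Its paralog psmc1b was at 30.4 CPM in dome, 51.7 and 40.0 CPM in 30% epiboly, and 59.0 and 52.1 CPM in 50% epiboly, and 24.1%, 47.6%, 40.4%, 53.2% and 63.8% labeled. The labeled percent of psmc1b was higher than that of psmc1a in all 5 libraries, although in 50% epiboly replicate B the values rest on 29 and 24 UMIs, while their dome levels were nearly equal. Neither passed the test from dome to 50% epiboly (log2 changes of 0.87 and 1.33, SE 0.49 for both, edgeR adjusted p = 0.266 and 0.0935).

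The genes psmd4a and psmd4b encode the ubiquitin receptor of the base. The psmd4b gene was at 32.3 CPM in dome, 28.2 and 37.0 CPM in the A replicates of 30% and 50% epiboly, and 62.6 and 96.9 CPM in the B replicates. Both B replicates of epiboly were above every other library. The psmd4a gene was at 27.6 CPM in dome, 25.4 and 23.95 CPM in 30% epiboly, and 18.8 and 26.9 CPM in 50% epiboly. A row named PSMD4 (ENSDARG00000104952) had 3 UMIs in all. The part of embryo handling, which differed between the replicates, was not tested.

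For the lid gene psmd11a the level was 71.1 CPM in dome, 38.7 and 31.5 CPM in 30% epiboly, and 30.4 and 19.7 CPM in 50% epiboly. All 4 later libraries were below dome, with a log2 change to 50% epiboly of -0.96 (SE 0.48; edgeR adjusted p = 0.211), which passed on library totals without TMM (-1.42, SE 0.47, edgeR adjusted p = 0.0392). Its paralog psmd11b was at 59.9 CPM in dome, 50.29 and 37.0 CPM in 30% epiboly, and 41.9 and 52.1 CPM in 50% epiboly, with a log2 change of 0.07 (SE 0.47; edgeR adjusted p = 0.942). In dome psmd11a was 5.67% labeled and psmd11b 3.41%, so both were mostly unlabeled at that stage. The PA200 activator gene psme4b was at 33.4 CPM in dome, 27.5 and 45.9 CPM in 30% epiboly, and 17.4 and 7.18 CPM in 50% epiboly, and 1.80% labeled over all libraries. Its paralog psme4a had 23 UMIs in all.

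Genes of the inducible beta type, which in vertebrates replace the constitutive peptidase subunits in immune cells, were hardly detected. Over all cells psmb10 had 185 UMIs, psmb12 84, psmb9a 21, psmb8a 1 and psmb13a 0, of 26669551 UMIs. The psmb10 level was 4.31 CPM in dome, 7.31 and 7.53 CPM in 30% epiboly, and 8.43 and 10.8 CPM in 50% epiboly. Its log2 change from dome to 50% epiboly, 1.54 (SE 0.64), did not pass (edgeR adjusted p = 0.132). The psmb12 gene followed the replicate letter and not the stage: it had 42 and 39 UMIs in the A replicates of 30% and 50% epiboly, 0 in both B replicates and 3 in dome. Expressed as levels these were 6.02 and 4.44 CPM against 0, 0 and 0.404 CPM.

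Assembly chaperones were low in level and mixed in label. The gene with most UMIs, psmg1, was at 92.6 CPM in dome, 86.0 and 76.7 CPM in 30% epiboly, and 64.3 and 120 CPM in 50% epiboly. At pairs of 1 or more UMIs it was 0.828% to 6.52% labeled, and thus mostly unlabeled at every stage. By contrast psmd10, the chaperone also called gankyrin, was 27.5% labeled in dome and 49.9% to 66% afterwards. The PSMG1 and PSMG2 proteins of mammals act as a dimer in alpha ring assembly. Here psmg2, at 5.79 to 21.5 CPM, was 40.2% labeled over all libraries against 3.17% for psmg1. The 2 genes that match by name alone also differed: psme3ip1 was 4.70% labeled over all libraries and at 66.4 to 103 CPM, and psmc3ip, which encodes a meiotic recombination factor, was 43.9% labeled and at 16.8 to 25.1 CPM.

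Cell types were compared in 12 of the 15 deposited types, those with 5 or more cells in 3 or more libraries, each against the other cells of the same libraries (edgeR's quasi-likelihood test, library as a block, adjusted over all genes tested). Neural Ectoderm and Dome had the most calls. In Neural Ectoderm 15 of 47 proteasome genes were higher and 0 lower, where 6.24% of all genes were higher and 15.2% differed in either direction. The median log2 difference was 0.21 over the 47 genes and -0.03 over all.

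The 5 of lowest adjusted p were psmb7, psmb6, psmg3, psma4 and PSMA2. Neural Ectoderm against the other cells had 383 against 195 CPM of psmb7 in dome, 338 against 285 and 251 against 202 CPM in 30% epiboly, and 468 against 407 and 730 against 558 CPM in 50% epiboly. It was higher in all 5 libraries, with a log2 difference of 0.44 (SE 0.09; edgeR adjusted p = 1.84e-04). For psmb6 the values were 211 against 39.0 CPM in dome, 126 against 106 and 105 against 86.2 CPM in 30% epiboly, and 195 against 157 and 235 against 152 CPM in 50% epiboly. The dome contrast, which rests on 32 UMIs in 65 cells, was the widest, and the log2 difference over all libraries was 0.58 (SE 0.13; edgeR adjusted p = 2.29e-04). The chaperone gene psmg3 had a log2 difference of 1.33 (SE 0.30; edgeR adjusted p = 5.49e-04), resting on 2 to 28 UMIs in Neural Ectoderm per library. The differences of psma4 and PSMA2 were 0.43 (SE 0.10) and 0.55 (SE 0.13), with edgeR adjusted p-values of 6.83e-04 and 7.06e-04. All 5 genes were higher in 5 of 5 libraries.

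**Figure D5:**
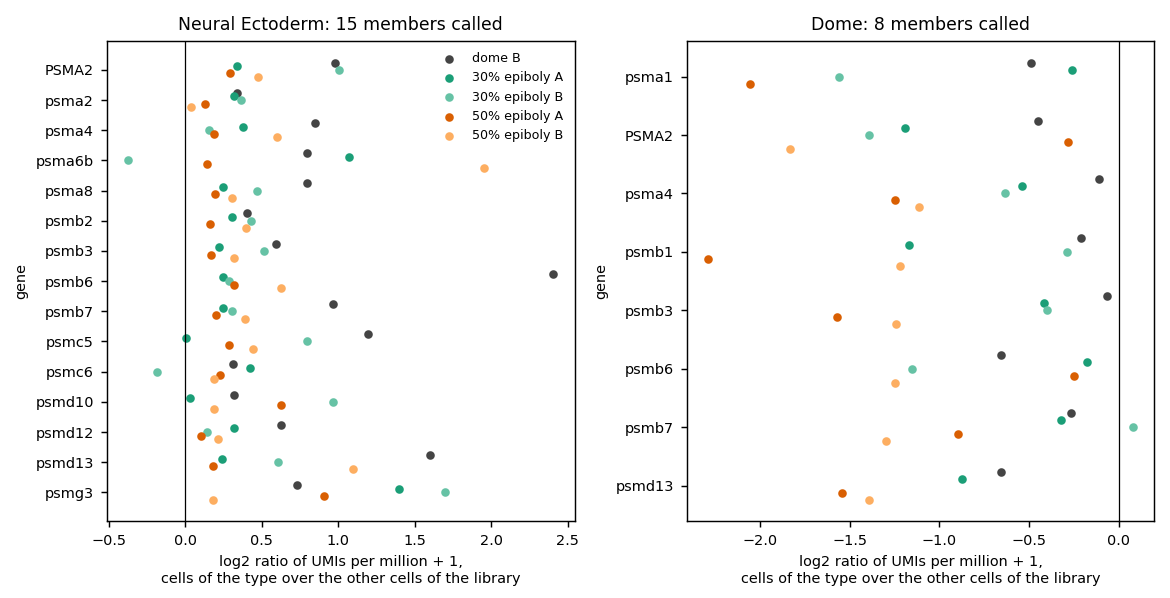
Log2 ratio of CPM + 1 (horizontal axes) between cells of the type and the other cells of the same library, for the 15 genes called in Neural Ectoderm (left) and the 8 called in Dome (right), 1 point per library. In Neural Ectoderm 13 of 15 genes are to the right of 0 in 5 of 5 libraries, and in Dome 7 of 8 are to the left of 0 in 5 of 5; 2 Dome values with 0 UMIs are not drawn.

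Summed over the family, the excess lay in labeled mRNA. In Neural Ectoderm the labeled proteasome UMIs were 0.131% of UMIs in dome against 0.0439% in the other cells, 0.146% against 0.122% and 0.147% against 0.111% in 30% epiboly, and 0.216% against 0.192% and 0.309% against 0.222% in 50% epiboly. The labeled share was thus higher in 5 of 5 libraries, while the unlabeled share was higher in 1 of 5. Other genes also had a higher labeled percent in these cells than in all cells of the library, in 5 of 5 libraries. It was 25.8% against 12.3% in dome, and 34.6% against 31.5% and 34.3% against 29.7% in 30% epiboly. In 50% epiboly it was 43.6% against 42.7% and 36.5% against 32.4%. The family's labeled percent in Neural Ectoderm was below that of its other genes in 4 of 5 libraries. The labeled excess in dome was not particular to this type: Non Neural Ectoderm had 0.139% against 0.0439% in its other cells. In Non Neural Ectoderm the labeled share was higher in 3 of 5 libraries and the family's whole share in 4 of 5. Neural Ectoderm cells held fewer UMIs than the other cells in 5 of 5 libraries, on average 2331 against 4066 in dome and 2448 against 3066 in 50% epiboly replicate A, and the part of this depth difference in the result was not tested. The count moved with the processing: 9 genes were called without TMM (8 higher, and psme3 lower), 7 by DESeq2, 0 without the library block, and 6 to 13 when 1 library was left out, with 6 without 30% epiboly replicate A and 8 without 50% epiboly replicate A. Calls over all genes moved too. They numbered 1338 of 8830 in the main fit, 1473 without TMM, 637 by DESeq2 and 98 of 7259 without the block. Without 30% epiboly replicate A they numbered 684 of 7679.

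In tests of single genes the cells named Dome went the other way. In them 8 of 48 proteasome genes were lower and 0 higher, where 8.53% of all genes were lower and 10.2% differed in either direction. The 5 of lowest adjusted p were psmb7, psmb6, psma4, PSMA2 and psmb3. Levels of psmb6 in Dome against other cells were 34.6 against 55.3 CPM in the dome library, 96.7 against 110 and 40.7 against 91.7 CPM in 30% epiboly, and 141 against 168 and 77.4 against 185 CPM in 50% epiboly, lower in 5 of 5 libraries. Its log2 difference was -0.84 (SE 0.22; edgeR adjusted p = 0.00194). The differences of psmb7, psma4, PSMA2 and psmb3 were -0.63 (SE 0.16), -0.71 (SE 0.19), -0.92 (SE 0.25) and -0.64 (SE 0.19), with edgeR adjusted p-values of 0.00128, 0.00388, 0.00494 and 0.00749. In the epiboly libraries these values rest on 17 to 59 Dome cells each.

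In Dome cells the labeled percent of the summed family (pairs of 1 or more UMIs) was 6.95% against 11.5% in the other cells in the dome library, 14.01% against 23.2% and 8.73% against 25.0% in 30% epiboly, and 19.3% against 34.8% and 15.7% against 35.4% in 50% epiboly. It was lower in 5 of 5 libraries, and the unlabeled share of UMIs was higher in 5 of 5. The family's whole share of UMIs was thus not lower throughout. It was above that of the other cells in 3 of 5 libraries, with 0.535% against 0.518% in the dome library. In 50% epiboly it was below, with 0.552% against 0.574% in replicate A and 0.699% against 0.732% in replicate B. The type as a whole was less labeled, with 10.6% for its other genes in the dome library. The count depended on the processing: 2 by DESeq2, 2 without TMM (psmb6 lower and psme3 higher), 1 without the library block, 4 with 30% epiboly replicate B left out and 5 with 50% epiboly replicate A left out. It was 8 without a filter on low counts and 12 (11 lower, 1 higher) without the dome library. Over all genes 899 of 8815 were called in the main fit, 539 by DESeq2 and 914 without TMM. They numbered 301 of 7148 without the block and 1233 of 4763 without the dome library.

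In the remaining types few or no genes passed. In the EVL (enveloping layer), an epithelium that covers the embryo, 1 of 47 was called (12.6% of all genes): psme3 was lower, at 559 against 620 CPM in dome, 366 against 581 and 215 against 418 CPM in 30% epiboly, and 243 against 384 CPM in 50% epiboly replicate A, a log2 difference of -0.42 (SE 0.12; edgeR adjusted p = 0.0217). All 4 libraries with 5 or more EVL cells had that direction. DESeq2 called 0. Leaving out any 1 of the 3 epiboly libraries ended the call. Without dome 3 of 47 proteasome genes were called, and 1562 of 8003 over all genes. The summed share of the family was lower in EVL than in the other cells in 4 of 4 libraries. In 30% epiboly replicate A it was 0.461% against 0.550%. Without TMM 6 of 47 proteasome genes were called, all lower. Over all genes that fit called 1470 of 8596, with 800 lower. Its median log2 difference was -0.27 over proteasome genes and -0.24 over all.

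In cells named Unspecified (30), 2 of 50 were lower (3.59% of all genes differed), psmb6 with a log2 difference of -0.80 (SE 0.22; edgeR adjusted p = 0.0266) and psma8 with -0.83 (SE 0.24; edgeR adjusted p = 0.0384). Without the dome library 8 of 49 proteasome genes were called, and without 30% epiboly replicate A or B or 50% epiboly replicate A 0. Over all genes the fit without dome called 1145 of 9217 (906 lower), against 358 of 9983 in the main fit. The other 3 fits called 57 of 8000, 245 of 10105 and 233 of 9503. In Notochord 1 of 44 was lower (6.13% of all genes differed), psmd4a at -0.86 (SE 0.27; edgeR adjusted p = 0.0328), resting on 1 to 15 UMIs in that type per library. Without 30% epiboly replicate A or B or 50% epiboly replicate A it was lost. In cells named YSL contam 1 of 47 was lower (5.7% of all genes differed), psma4 at -0.85 (SE 0.23; edgeR adjusted p = 0.00524), and it was lost without 30% epiboly replicate A or 50% epiboly replicate A.

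By edgeR 0 genes were called in 6 types, and DESeq2 called 0 in each of these. They were Endoderm (A) with 0 of 41 (4.24% of all genes), Muscle Blood with 0 of 44 (5.88%), Non Neural Ectoderm with 0 of 46 (5.2%), Prechordal Plate with 0 of 41 (7.87%), a type high in isg15 and sesn3 with 0 of 44 (5.66%), and Ventral Margin with 0 of 46 (5.8%). Unadjusted p-values under 0.05 numbered 0, 1, 2, 2, 0 and 1 in the same order. Without 50% epiboly replicate A, 1 of 38 proteasome genes was called in Prechordal Plate, and 174 of 4110 over all genes. In Ventral Margin, as in Neural Ectoderm, the family's share of UMIs and its labeled share were above those of the other cells in 5 of 5 libraries, with shares of 0.550% against 0.528% in dome and 0.575% against 0.573% in 50% epiboly replicate A.

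Primordial germ cells (PGCs), the founders of eggs and sperm, were too few to test, with 26 cells in dome and 9 in 30% epiboly replicate A. In dome their proteasome mRNA was 4.16% labeled against 8.71% in the other cells, and in 30% epiboly replicate A 9.47% against 23.1%. Their other genes were 7.27% and 18.1% labeled, and thus also below the library values of 12.3% and 31.5%. The family took 0.528% of PGC UMIs in dome (95% exact binomial interval 0.486 to 0.573), as in the other cells. In 30% epiboly replicate A it took 0.666% (0.591 to 0.748) against 0.544%.

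Genes that act with the proteasome were counted from a list of 50 names, matched by 45 genes, of ubiquitin genes, receptors, ligases and assembly factors. From dome to 50% epiboly 1 of 42 tested, the polyubiquitin gene ubb, rose in total counts (5.69% of all genes rose) and 0 fell, and the list's median log2 change was 0.22. In labeled CPM 6 of 10 rose (UBB, pomp, skp1, ube2na, ube2d2 and sem1) and 0 fell, near the 46% of all genes that rose. The maturation factor pomp, which escorts the 20S core during assembly, had a labeled log2 change of 2.79 (SE 0.57; limma adjusted p = 0.0203), and sem1, a small lid subunit outside the name rule, of 1.68 (SE 0.58; limma adjusted p = 0.0497). In Neural Ectoderm, with 37 of the list tested, rps27a, ubqln4, sem1, pomp and adrm1 were higher. In Dome, with 38 tested, ubb, rps27a, ubqln4 and sem1 were lower. Of all genes 6.24% were higher in Neural Ectoderm and 8.53% lower in Dome. Other types had calls too. Higher were uchl5 in Muscle Blood, ubb in the type high in isg15 and sesn3, and adrm1 in Ventral Margin. Lower were UBB and adrm1 in YSL contam. In these types 35 to 38 of the list were tested, and 5.66% to 5.88% of all genes differed.

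Of the 56 genes 7 had under 50 UMIs over all cells: the row PSMD4, psma6l, psme2, psme4a, psmb8a, psmb9a and psmb13a. The 5 left out of the stage test were PSMD4, psma6l, psmb8a, psmb9a and psmb13a. With 0 of 26669551 UMIs, psmb13a was not detectable at this depth.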

How the data were processed

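Cells of the 5 IAA libraries were used. The authors deposited UMI counts per gene and cell and, per gene and cell, the labeled fraction (0 to 1) estimated by GRAND-SLAM on GRCz11. Per the methods, reads in which A was replaced by G were aligned with Bowtie2 to converted genomes, so that conversions did not lower mapping, and cells with 500 or more genes were kept; 15 cells of the deposited counts held fewer. Bowtie2, SAMtools and GRCz11 are also in the submitters' processing notes. The sources used here name neither the step that wrote the count table nor a treatment of doublets, and none was applied. Injected RNAs (0.534% of UMIs) were left out, as were 10 further columns that describe each cell.

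Counts were summed per library or cell type and tested with edgeR 4.0.16 (quasi-likelihood, TMM, filterByExpr). Labeled and unlabeled CPM were tested with limma 3.58.1. DESeq2 1.42.0 was an alternative; library totals, other filters, pseudocounts, pair limits, blocks and left-out libraries were the others. Fits were tested on simulated data. Named genes were those called, all paralog pairs and inducible genes, the 3 highest and 3 lowest labeled percents, up to 5 per cell type, the most abundant per role, and the 2 matched by name alone; psmd10, psmg2 and psmd11a on library totals were added after their values were seen. Members and lists were chosen with earlier results of these data known. The name table held 55 of the 56 gene IDs. The cell type result of 1 gene of the list of proteasome partners is not reported here.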

Additional observations from a re-analysis of the deposited data

How the results depend on the processing

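From dome to 50% epiboly between 6 and 16 proteasome genes were called in total counts with 1 library left out, between 0 and 3 from dome to 30% epiboly and between 0 and 2 from 30% to 50% epiboly. In labeled CPM from dome to 50% epiboly 0 to 4 were called with 1 library left out, and 22 of 30 genes with pairs of 1 or more UMIs. The replicate letters are not stated to mark a shared source. With the replicate block 10 of 51 proteasome genes were called in total counts from dome to 50% epiboly (885 of 12150 over all genes). In labeled CPM 9 of 12 were called in that step (452 of 791 over all genes). From dome to 30% epiboly 2 of 12 were called in labeled CPM (106 of 791 over all genes). With 1 library left out, calls numbered 4 to 12 in Dome, 0 to 3 in EVL, 6 to 13 in Neural Ectoderm, 0 to 1 in Notochord, Prechordal Plate and YSL contam, and 0 to 8 in Unspecified (30). Over all genes they numbered 533 to 1233 in Dome and 676 to 1562 in EVL. In Neural Ectoderm they numbered 667 to 1326 and in Unspecified (30) 57 to 1145. Without a library term (no replicate block) there was 1 call in Dome and 0 in EVL, Neural Ectoderm, Notochord, Unspecified (30) and YSL contam. Calls over all genes fell too, from 899 to 301 in Dome and from 1338 to 98 in Neural Ectoderm. DESeq2 gave 2 calls in Dome, 7 in Neural Ectoderm and 0 in EVL, Notochord, Unspecified (30) and YSL contam. On library totals there were 2 calls in Dome, 6 in EVL, 9 in Neural Ectoderm and 0 in Unspecified (30). Over all genes these fits called 914 of 8815, 1470 of 8596, 1473 of 8830 and 261 of 9983. Without a filter on low counts there were 4 calls in EVL, 9 in Neural Ectoderm, 10 in Notochord and 2 in YSL contam. Over all genes those fits called 1420 of 19688, 1336 of 19725, 1004 of 19725 and 686 of 19688. The summed labeled percent with pairs of 1 or more UMIs was 8.64% in dome, 23.0% in 30% epiboly replicate A and 34.7% in 50% epiboly replicate A. With pairs of exactly 3 UMIs it was 8.39% in dome, 23.3% and 25.0% in 30% epiboly and 41.4% in 50% epiboly replicate A, where all other genes had 40.8%, so that the proteasome value was lower than theirs in 3 of 5 libraries. The mean share per cell in 30% epiboly replicate B was 0.475%. The cause of these differences was not tested. The median unlabeled change turned from -0.13 to 0.12 from dome to 50% epiboly without 50% epiboly replicate A, and from 0.12 to -0.16 from 30% to 50% epiboly without 50% epiboly replicate B. Of the comparisons of summary values with an alternative, 160 stayed within the spread or within 1.5 times the count and 57 moved further. For single genes 232 kept their call and 151 lost it. A search for promoter motifs was not run. Depth limits the 50% epiboly replicate B values most.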
